A study of Mus musculus with 10 samples.

Results

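The genes of the endogenous opioid system were examined on 2-colour oligonucleotide microarrays of mouse hemibrain. They comprised the 4 opioid peptide precursors, Penk, Pdyn, Pnoc and Pomc, and the 4 opioid receptors, Oprm1, Oprd1, Oprk1 and Oprl1, and were chosen by gene symbol alone. Probes were named through the RefSeq accession that the array design gives each of them. Of these 8 genes, 7 were matched to at least 1 probe in this way, by 10 of the 41174 probes on the array. In all, 27198 probes were matched to 18539 genes. No probe matched either of the 2 RefSeq accessions of Pdyn, the precursor of dynorphins, and Pdyn was not analysed here. The other probes had no name here, and a Pdyn probe may be among them, since the paper reports a value for Pdyn.

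Male C57BL/6J mice lived in single cages from 3 weeks of age until 5 months of age, about 20 weeks. They ate a standard diet (SD) or a diet enriched in fish oil (FD). The FD held more fat and more n-3 polyunsaturated fatty acids than the SD, and less of the n-6 kind. RNA of the left hemibrain of 10 animals was labelled with Cy-5, and 1 array was hybridised per animal, with a comparison RNA in Cy-3. The sources describe that comparison RNA both as a commercial reference RNA and as pooled hemibrain RNA of SD mice, and they do not settle which it was. The diet of each animal was not settled either, because the sample labels give the FD in Cy-5 for all 10 animals and elsewhere call them controls. No diet comparison was therefore made, and values are given per array, or as the lowest, the median and the highest of the 10 arrays. Arrays are named by their animal, C10-413 to C10-437.

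Opioid peptides are cut out of larger precursors by prohormone convertases inside secretory vesicles and are released from neurons and endocrine cells. Enkephalins come from proenkephalin (Penk) and act mainly on delta and mu receptors, beta-endorphin comes from proopiomelanocortin (Pomc) and acts mainly on mu receptors, dynorphins act on kappa receptors, and nociceptin comes from prepronociceptin (Pnoc) and acts on the nociceptin receptor (Oprl1). All 4 receptors couple to inhibitory G proteins, which lower cyclic AMP and open inwardly rectifying potassium channels. In the brain, Penk is known for its high expression in striatal projection neurons, and Pomc for its neurons in the arcuate nucleus of the hypothalamus and for its expression in the pituitary.

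The main measure was the log2 ratio of the processed Cy-5 signal over the processed Cy-3 signal of a probe, so that a value above 0 means more signal from the hemibrain than from the comparison RNA. A probe was counted as detected in a dye where the scanner software marked it well above background. The library C10-434 stood apart before any gene was considered: its share of probes detected in Cy-5 was 49.8% (68.2% to 76.9% elsewhere) and its share detected in Cy-3 was 61.9% (70.3% to 79.1% elsewhere). Over 40060 probes, the log2 ratios of any pair of arrays correlated with r between 0.87 and 0.97 (median 0.94). The tissue label was checked on marker genes, and all 8 neuronal markers were above 0 on every array (median of their medians 5.53), as were 9 of 9 striatal markers (4.42; 8 of 9 with normexp correction), 5 of 5 interneuron markers (5.62) and 5 of 5 astrocyte markers (6.62). Of 5 fibroblast and mesenchyme markers, 4 were below 0 on every array (median over the 5 genes −4.40). Marker ratios thus lay far from 0 in both directions, down to a median of −5.66 for the collagen gene Col1a1. The identity of the comparison RNA was not tested.

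The 6 opioid genes that were detected in Cy-5 had more Cy-5 than Cy-3 signal on all 10 arrays, as read on their brighter probes. The second probe of Oprl1 was the exception among the 9 detected probes, above 0 on 7 arrays. A brighter probe is the one with the higher mean log2 signal over both dyes. Selecting genes on Cy-5, and probes partly on Cy-5, favours ratios above 0, so the count of 6 is a description only. With 1 probe per gene and Oprm1 included, whose signals were not well above background, the log2 ratio of 7 of 7 genes was above 0 on every array, against 31.3% of all 17659 genes with a value. Below 0 on every array were 0 of the 7, against 33.9% of all genes. In Cy-5, 6 of the 7 were detected on every array, against 64% of all genes, and Oprm1 was detected on no array in either dye. These are counts in pieces of whole tissue, in which fewer cells of a type and less RNA per cell cannot be told apart.

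**Figure D1:**
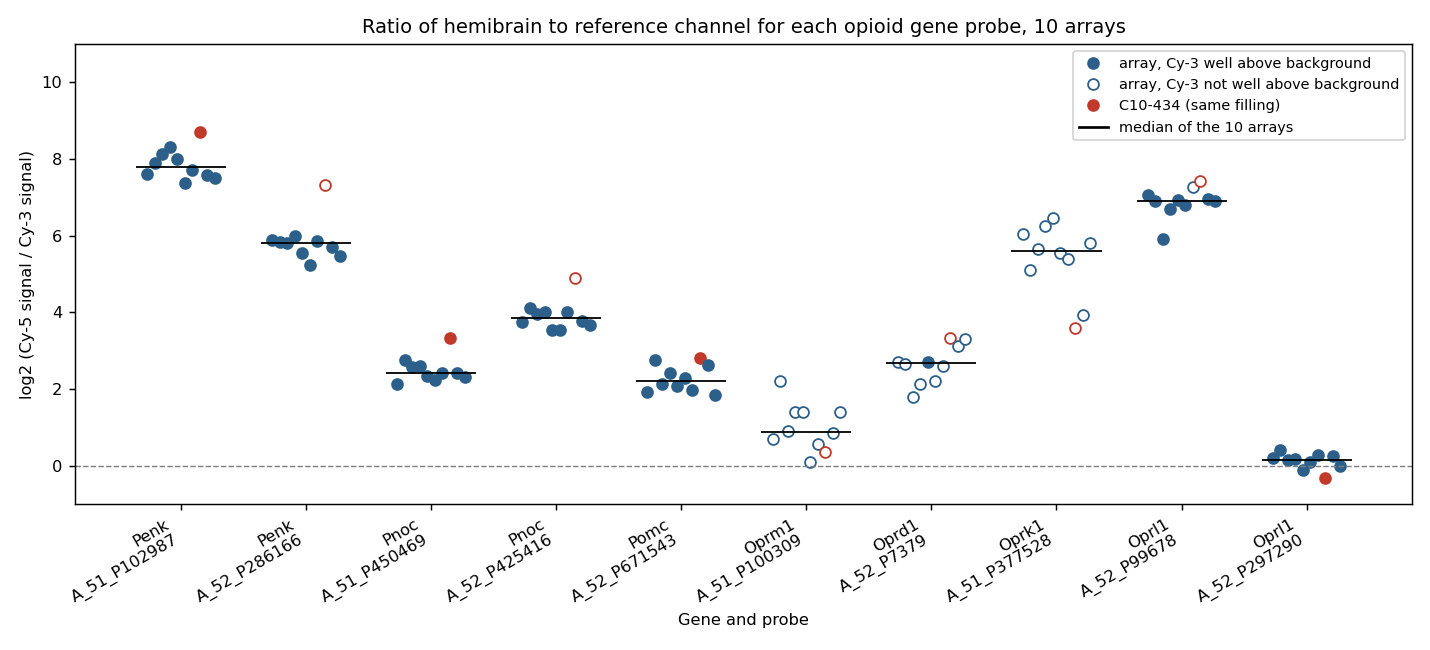
Each point is 1 array, the vertical axis is the log2 ratio of Cy-5 over Cy-3 signal, and the horizontal axis lists the 10 probes by gene; open points mark arrays on which the probe was not well above background in Cy-3, red points mark C10-434, and black lines are medians. Penk lies highest, with a median of 7.79 for its brighter probe, and the second Oprl1 probe, A_52_P297290, is the only 1 of the 10 with points below 0.

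Among the peptide precursors, Penk had the largest ratio. On its brighter probe, A_51_P102987, the log2 ratio was lowest on C10-424 (7.39), had a median of 7.79 and was highest on C10-434 (8.69). The median corresponds to 222-fold more signal in Cy-5, and 99.7% of all genes had a lower median ratio. The probe was detected in both dyes on all 10 arrays, with a processed Cy-5 signal of 109675 to 268489 and a Cy-3 signal of 265 to 1159. Both signals were lowest on C10-434, and the remaining 9 arrays had Cy-3 signals of 645 or more. The high ratio on C10-434 thus went with a low Cy-3 signal, and without this array the median was 7.70 and the range of the ratios narrowed from 1.31 to 0.91.

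The other Penk probe, A_52_P286166, gave lower ratios, from 5.24 on C10-424 through a median of 5.82 to 7.32 on C10-434. On C10-434 its Cy-3 signal (36.8) was not well above background, whereas it was 217 or more on the other 9 arrays. Set against the dimmest detected Cy-3 signal of that array, the ratio on C10-434 was at least 6.48. The median of this probe was 5.09 with normexp and 5.23 with floored background correction, which add an offset to both dyes. Both probes gave the same picture of Penk, high on every array with the highest ratio on C10-434, but they differed in size by a median of 2.05 on the log2 scale.

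Pnoc, the precursor of nociceptin, was also above 0 on every array. Its brighter probe, A_51_P450469, ran from 2.13 on C10-413 through a median of 2.42 to 3.33 on C10-434, a median of 5.35-fold. The other probe, A_52_P425416, ran from 3.54 on C10-424 through 3.86 to 4.90 on C10-434. C10-434 was again the highest array on both probes, with no other array above 2.76 on the brighter probe or above 4.10 on the other. As for Penk, its Cy-3 signals on that array were the lowest of the 10 (129 and 25.8), and the second of these was not well above background. With the dimmest detected Cy-3 signal in its place, the highest ratio of that probe was 4.10, on C10-415. Its median was 2.47 with normexp and 2.75 with floored background correction. Without C10-434 the medians were 2.41 and 3.76.

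Pomc, from which beta-endorphin and the melanocortins are cut, had 1 probe, A_52_P671543, detected in both dyes on all arrays. Its log2 ratio ran from 1.85 on C10-437 through a median of 2.21 to 2.80 on C10-434, with C10-415 close behind at 2.76. The median is a 4.62-fold excess of Cy-5 signal. No array stood alone, and without C10-434 the median was 2.13.

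Because Pomc is strongly expressed in the pituitary, markers of that gland were read beside it. None of the 9 pituitary markers with a value was above 0 on every array (1 with loess or normexp correction), 3 were below 0 on every array, and 1 of the 9 was detected in Cy-5 on all 10 arrays. Their median per array lay between −1.19 on C10-434 and 0.29 on C10-435. Growth hormone (Gh) had a median of −0.88 and was detected in Cy-5 on 2 arrays, and prolactin (Prl) had a median of −2.81. Of 7 markers of the arcuate nucleus, 4 were above 0 on every array, and the median of the 7 was 0.55. Cartpt (5.38), Npy (4.23, also an interneuron marker), Kiss1 (1.76) and Ghrh (0.55) were those 4, while the median of Nr5a2 was 0.20 and Tbx3 (−1.10) was below 0 on every array. Agrp, made by the arcuate neurons that oppose Pomc neurons, had a median of 0.20 and was above 0 on 7 arrays. The part of either structure in the Pomc ratio was not tested.

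The bases before the start sites of Pomc and Oprd1 are shown because, among the opioid genes with a promoter in the RefSeq table, only these had a match to a motif searched. The 250 bases upstream of the start are given for assembly GRCm38.p6, 5′ to 3′ on the gene's own strand, with matches in capitals. Motifs were the TATA box (TATAAA, own strand only), the GC box bound by Sp1 (GGGCGG, both strands, so CCGCCC on the printed strand) and a CREB half-site (TGACG, both strands). No match overlaps another.
Pomc, chr12:3954695-3954944, plus strand: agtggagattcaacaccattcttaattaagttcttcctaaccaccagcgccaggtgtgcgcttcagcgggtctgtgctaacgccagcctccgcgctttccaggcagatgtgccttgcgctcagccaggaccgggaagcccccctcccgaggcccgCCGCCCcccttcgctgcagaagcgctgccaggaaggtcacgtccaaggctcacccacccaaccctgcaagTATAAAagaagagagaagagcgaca
Oprd1, chr4:132144487-132144736, minus strand: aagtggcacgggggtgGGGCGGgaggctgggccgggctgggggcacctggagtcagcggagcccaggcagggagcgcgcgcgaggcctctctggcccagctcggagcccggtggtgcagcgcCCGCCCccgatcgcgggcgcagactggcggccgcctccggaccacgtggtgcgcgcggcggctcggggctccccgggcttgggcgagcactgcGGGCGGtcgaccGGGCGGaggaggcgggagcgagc
The Pomc stretch holds 1 TATA box and 1 GC box, at 60% G and C bases. The Oprd1 stretch holds 4 GC boxes and no TATA box, at 80% G and C bases, more than 98.8% of the 32851 promoters in the table, whose median was 52.4%. Over all promoters, 7.59% held the TATA box, 32.7% the GC box and 17.8% the CREB half-site. The stretches of Pdyn (2 start sites), Oprl1 (3) and Oprm1 (3) held none of these letters.

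Among the receptors, Oprl1, the nociceptin receptor, had the largest ratio and also the largest disagreement between probes. Its brighter probe, A_52_P99678, ran from 5.92 on C10-416 through a median of 6.91 to 7.43 on C10-434, a median of 120-fold. Its Cy-3 signal was not well above background on 2 of the 10 arrays, C10-425 and C10-434. Set against the dimmest detected Cy-3 signal on those arrays, the ratio was at least 39.8-fold on the lowest array, C10-434, and had a median of 115-fold (log2 6.85). With normexp or floored background correction the median log2 ratio was 4.45 or 5.10, below that bound.

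The other Oprl1 probe, A_52_P297290, was designed to the same transcript and gave ratios near 0. It ran from −0.33 on C10-434 through a median of 0.16 to 0.42 on C10-415, was above 0 on 7 arrays, and was detected in both dyes on all 10. The brighter probe was higher on 10 of 10 arrays, by 5.78 to 7.75 (median 6.78). Among 2623 genes with exactly a pair of probes, the median size of this difference was 0.60, and 99.9% of them had a smaller one than Oprl1. The Penk pair exceeded 88.6% of these genes and the Pnoc pair (size 1.37) exceeded 77.3%. Across arrays the paired probes followed each other for Penk (r = 0.83, and 0.64 without C10-434) and for Pnoc (r = 0.94, and 0.77 without it), whereas the Oprl1 probes did not (r = −0.26, and 0.13 without it). Each r is a description over arrays that share the same labelling of both probes. The size of the Oprl1 ratio therefore depends on the probe, and the mean of both probes had a median of 3.50.

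Oprk1, the kappa receptor, had 1 probe, A_51_P377528, detected in Cy-5 on all 10 arrays and in Cy-3 on none. Its log2 ratio ran from 3.59 on C10-434 through 5.60 to 6.45 on C10-423, but its Cy-3 signals were only 6.44 to 28.7. Against the dimmest detected Cy-3 signal of each array, Oprk1 was at least 10.68-fold higher in Cy-5 at the median, and at least 2.87-fold higher on the lowest array, C10-434. That median bound is 3.42 on the log2 scale, and with normexp or floored background correction the median log2 ratio was lower, 1.49 or 1.94, so the size depends on the background correction. In the processed ratios C10-434 and C10-435 (3.93) lay well below the other 8 arrays, of which the lowest was C10-415 at 5.09. Those were the arrays with the highest Cy-3 signals of this probe, 15.7 and 28.7, both not well above background, so their rank is not a measurement.

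Oprd1, the delta receptor, had 1 probe, A_52_P7379, detected in Cy-5 on all 10 arrays and in Cy-3 on 1, C10-423. Its log2 ratio ran from 1.79 on C10-416 through 2.67 to 3.32 on C10-434, with C10-437 at 3.31. Against the dimmest detected Cy-3 signal it was at least 4.61-fold higher in Cy-5 at the median, and at least 2.73-fold higher on the array with the lowest bound, C10-434. C10-434 thus had both the highest processed ratio and the lowest bound, and the order of the arrays is not a measurement. The median bound is 2.21 on the log2 scale, and with normexp or floored background correction the median log2 ratio was lower, 0.45 or 0.78. The annotation places a transfer RNA gene, n-TAcgc3, over part of Oprd1.

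Oprm1, the mu receptor and main target of morphine, had 1 probe, A_51_P100309, that was not well above background in either dye on any array. Its Cy-5 signal was 16.1 to 52.8 and its Cy-3 signal 9.71 to 25.0, so no fold is given for it. The annotation places another gene, Ipcef1, over part of Oprm1. A low signal of 1 probe does not show that the transcript is absent from the tissue.

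**Figure D2:**
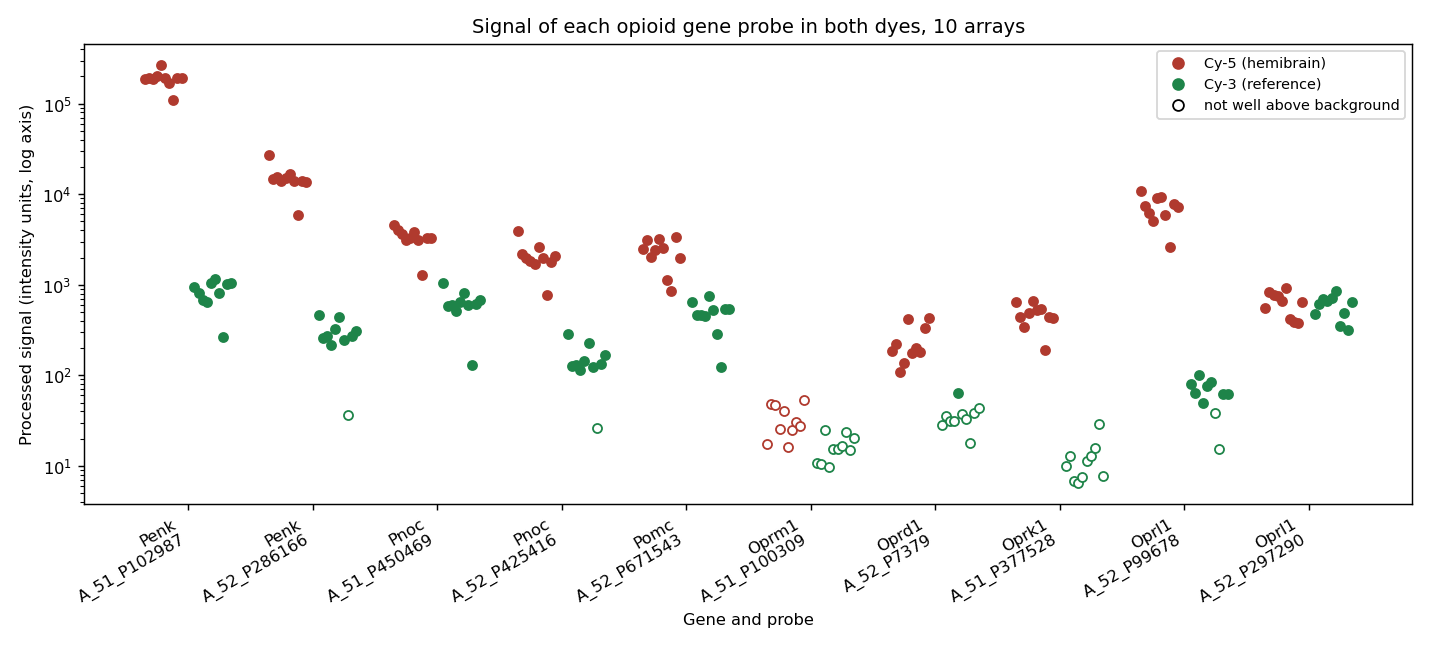
The vertical axis is the processed signal on a log axis, in intensity units of the scanner software, for each probe on the horizontal axis; each point is 1 array, red for Cy-5 and green for Cy-3, and open points were not well above background. Levels of different probes are not comparable; within a probe, the dyes are far apart for Penk (Cy-3 265 to 1159 on the brighter probe) and overlap for A_52_P297290 of Oprl1.

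The arrays spread differently in the dyes. Each dye was scaled to the 75th percentile of its own array, and the range over the 10 arrays was taken on the log2 scale. For the brighter Penk probe the Cy-5 range was 0.59 and the Cy-3 range 1.12, and for the brighter Pnoc probe they were 0.69 and 1.73. Only 2 of the 10 opioid probes, those of Pomc (1.64 against 1.35) and Oprd1 (1.98 against 1.20), had the larger range in Cy-5. Among the 10533 genes detected in both dyes on all arrays, 93.9% had the larger range in Cy-5, with median ranges of 0.87 in Cy-5 and 0.23 in Cy-3. Of the 10 opioid probes, 4 were detected in both dyes on all arrays, and among these the like count was 1 of 4, that of Pomc. Without C10-434, the counts were 4 of 10 and 1 of 4, against 95.2% of the 10533 genes. The part of dim Cy-3 signals in these ranges was not tested.

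The genes that make, break down and pass on opioid signals were read on the same scale. Of 45 such genes, 38 had a value. Of these, 21 were above 0 on every array, against 31.3% of all genes, and 11 were below 0 on every array, against 33.9%. The count below 0 is not read as a trait of these genes. The median of the 38 medians was 1.35, against 0.045 over all genes. Of the 38, 34 were detected in Cy-5 on every array, against 64% of all genes. Under 4 other scalings and background corrections, 21 or 22 of the 38 were above 0 on every array and 8 to 11 below.

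Peptide processing held genes on both sides of 0. Pcsk1 and Pcsk2, the convertases that cut the precursors, had medians of 7.59 and 3.23, and Scg5, the chaperone of Pcsk2, had 7.26. All 3 were above 0 on every array, although Pcsk1 was not well above background in Cy-3 on any. Pam, which amidates peptide ends, and Ctsl, a cathepsin able to cut proenkephalin, were below 0 on every array, with medians of −0.43 and −2.17, but Pam was on neither side on all arrays with loess or with either other background correction. Values of Cpe and Pcsk1n were not analysed here.

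Peptide breakdown was mixed. Ece2 and Ace, metallopeptidases that cut opioid peptides, were above 0 on every array with medians of 2.41 and 1.03. Anpep (aminopeptidase N) and Dpp3, an enkephalin-degrading dipeptidyl peptidase, were below 0 on every array with medians of −2.03 and −0.49, Dpp3 not so after background subtraction with a floor. Mme, the gene of neprilysin, ran from −0.82 on C10-434 to 3.18 on C10-413, the widest of the 5.

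Of 13 G protein and effector genes, 10 were above 0 on every array and 2 below. The highest were the adenylyl cyclases Adcy1 and Adcy8, with medians of 5.66 and 4.92, and the potassium channel subunit Kcnj9, with 5.53. The lowest were the inhibitory G protein subunits Gnai3 (−2.28) and Gnai2 (−0.92), both below 0 on every array, and Kcnj5, another channel subunit, which was detected in Cy-5 on no array.

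Of 8 regulators of the receptors with a value, 4 were above 0 and 3 below 0 on every array. Rgs9, which speeds the turning off of G proteins in the striatum, Grk3, a receptor kinase, and the arrestin Arrb1 had medians of 4.42, 4.36 and 3.08. Rtp4, which helps opioid receptors reach the cell surface, Rgs19 and the receptor kinase Grk5 were below 0 on every array, with medians of −2.89, −1.56 and −0.70. The other receptors that bind opioid peptides, Ackr3 (−0.66) and Ogfr (−0.82), were below 0 on every array, Ogfr not so after background subtraction with a floor. In the melanocortin arm that shares the Pomc precursor, Mc4r (0.90) and Mc3r (0.66) were above 0 on every array, and Mc1r, Mc2r and Agrp were on neither side on all arrays.

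**Figure D3:**
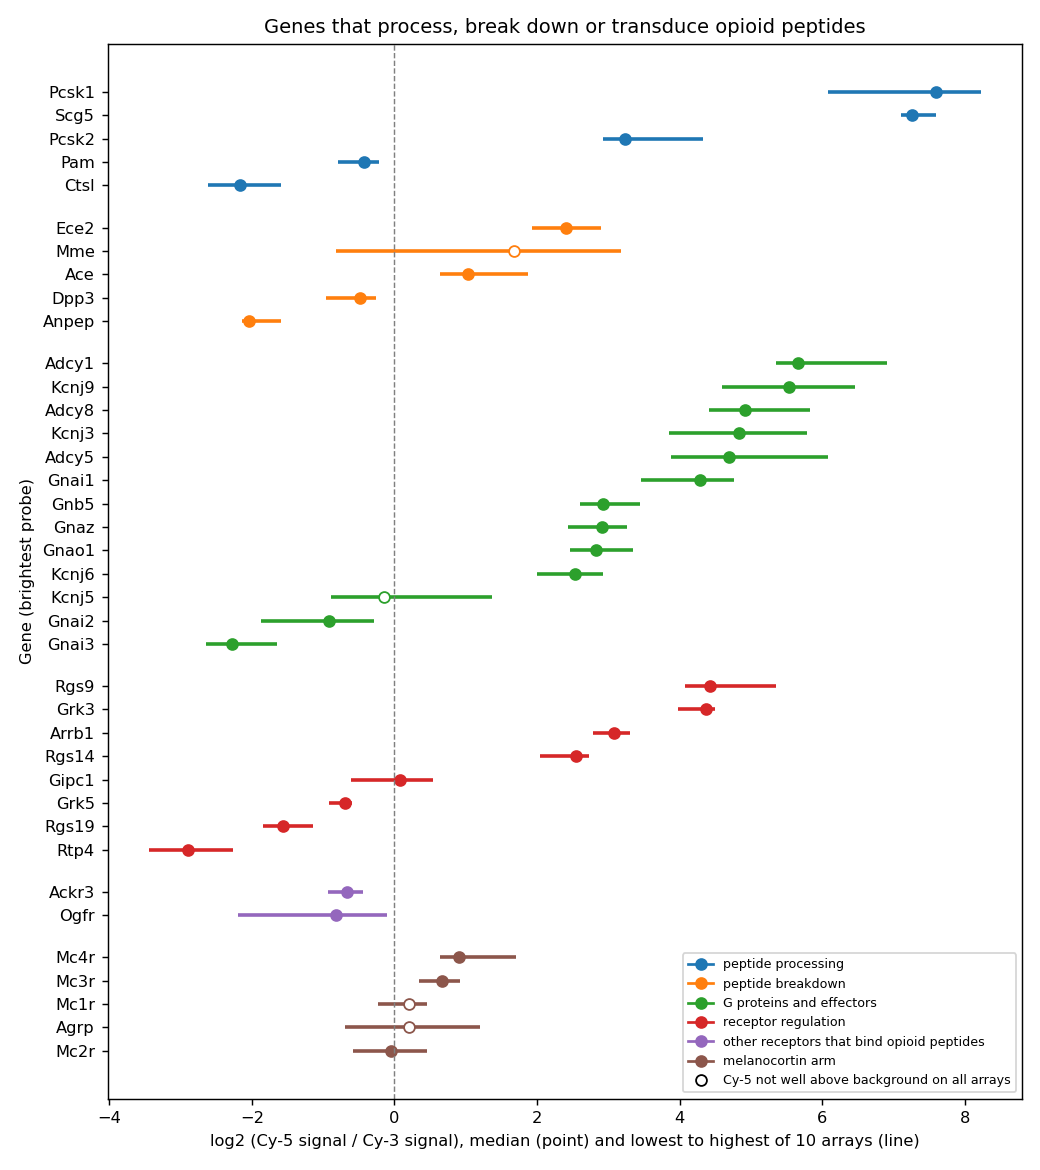
The horizontal axis is the log2 ratio of Cy-5 over Cy-3 signal; points are medians and lines run from the lowest to the highest of 10 arrays, 1 line per gene (brightest probe), coloured by role, with open points for genes that missed detection in Cy-5 on at least 1 array. Medians run from 7.59 for Pcsk1 to −2.89 for Rtp4.

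The arrays lay on 4 slides, of which 2 held 4 arrays each, and these were compared as technical batches: slide 1 held C10-415, C10-416, C10-417 and C10-423, and slide 2 held C10-424, C10-425, C10-434 and C10-435. With limma over 40299 probes and Benjamini-Hochberg adjustment, 30 probes (0.0744%) differed between the slides at an adjusted p under 0.05, and none of the 10 opioid probes was among them (lowest adjusted p 0.24). The count over all probes was 0 to 18 with any 1 of the 8 arrays left out, 68 among probes detected in Cy-5 and 2704 in Cy-5 alone, none of them an opioid probe. At an unadjusted limma p under 0.05 there were 2 of the 10 opioid probes, against 10% of all probes. Since the animals' diets were not settled, a slide difference and a difference between the animals on it cannot be told apart.

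The opioid probes at an unadjusted p under 0.05 were those of Oprk1 and Oprm1, and neither difference is a firm measurement. Oprk1, detected in Cy-3 on no array, was lower on slide 2 by a difference of −1.25 (SE 0.49, 95% interval −2.36 to −0.13, limma adjusted p = 0.43), but this was −0.13 with normexp and −0.20 with the floored background correction. In Cy-5 alone its difference was 0.10, of the opposite sign. Oprm1, not well above background in either dye on any array, had a difference of −1.01 (SE 0.29, limma adjusted p = 0.24) in the processed ratios, and −0.00033 and 0.013 with those background corrections. No slide difference in transcript level is read from either probe.

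For the other 8 probes the difference lay between −0.24 for the brighter Penk probe and 0.50 for Oprd1 and the brighter Oprl1 probe, and every 95% interval held 0. The interval for the brighter Penk probe was −0.87 to 0.39, and that for Pomc was −0.46 to 0.59, so differences of that size between slides could have gone unseen with 4 arrays each.

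**Figure D4:**
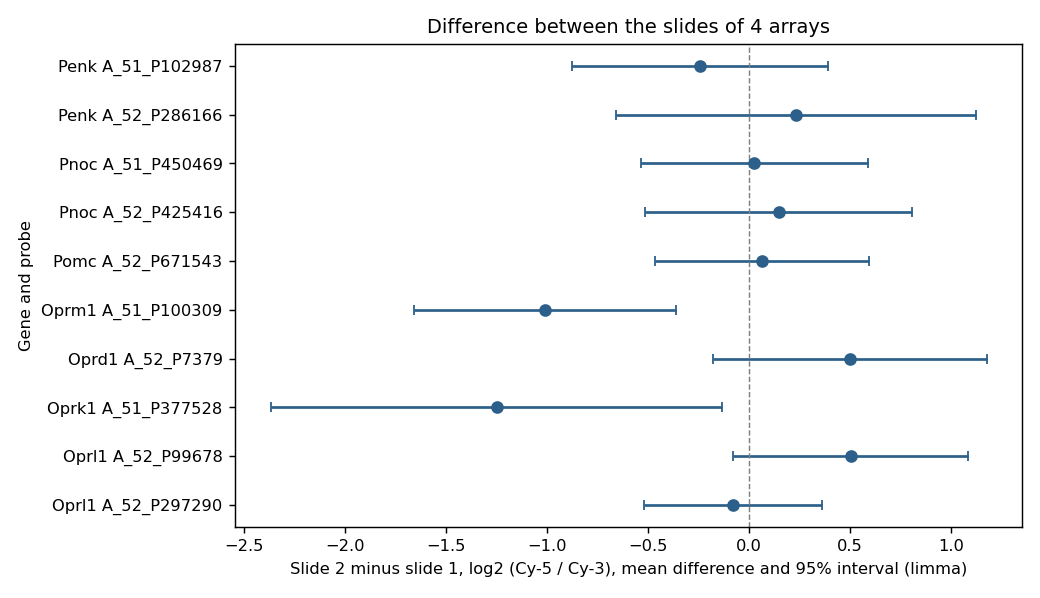
The horizontal axis is the mean log2 ratio on slide 2 minus that on slide 1, for the 10 probes on the vertical axis; points are differences from 4 arrays against 4 and bars are 95% intervals from limma. The bars of Oprm1 and Oprk1 are the only ones that leave out 0, before adjustment over all probes, and both rest on Cy-3 signals not well above background.

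The 6 opioid genes detected in Cy-5 on every array were correlated across the 10 arrays, 15 pairs in all, with permutation tests and Benjamini-Hochberg adjustment over the pairs. Penk and Pnoc gave Pearson's r = 0.85 (two-sided permutation p = 0.0029, adjusted p = 0.038) and Spearman's rho = 0.76 (p = 0.015, adjusted p = 0.12). Pnoc and Pomc gave r = 0.75 (permutation p = 0.0051, adjusted p = 0.038) and rho = 0.79 (p = 0.0091, adjusted p = 0.12). Oprd1 and Oprl1 gave r = 0.75 (permutation p = 0.0078, adjusted p = 0.039) and rho = 0.71 (p = 0.026, adjusted p = 0.13). No other pair passed by r, and no pair passed by rho. Oprd1 was detected in Cy-3 on 1 array, Oprl1 on 8 and Oprk1 on none, so the pairs that include them correlate ratios over Cy-3 signals that are mostly or partly not well above background, whereas Penk, Pnoc and Pomc were detected in both dyes on all 10. The correlations rested on few arrays. With the 2 arrays farthest from the median of the first gene left out, r was 0.61, 0.46 and 0.33 for these pairs, and none of the 15 pairs passed. C10-434 was 1 of those arrays for all 3 pairs, and without it alone r was 0.66, 0.68 and 0.67 and again none passed. A slide of 4 arrays was too small for a correlation within it.

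**Figure D5:**
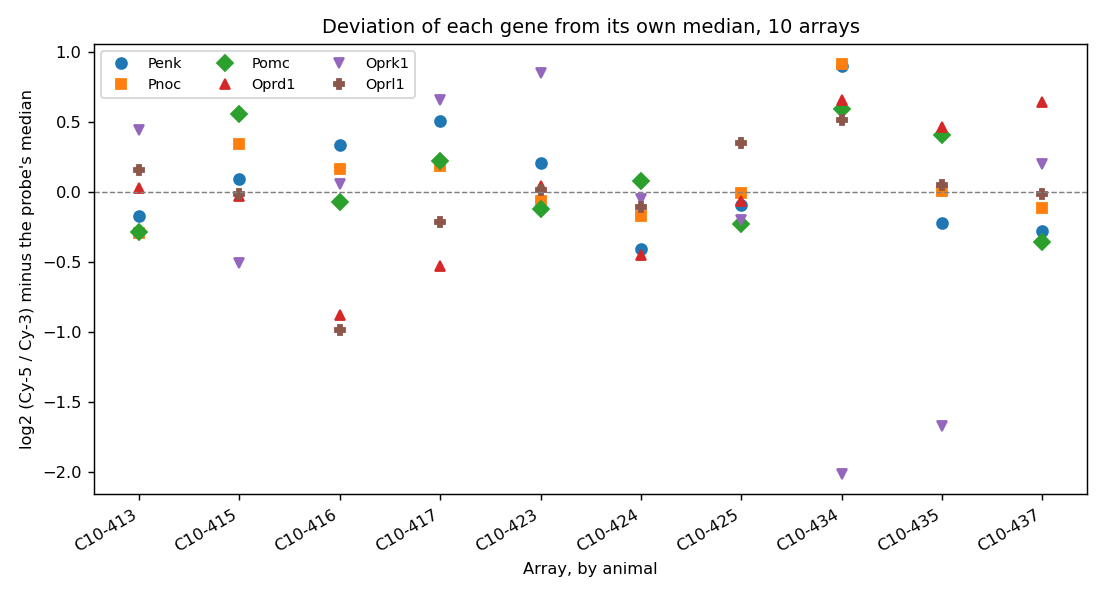
The vertical axis is the log2 ratio of a gene on an array minus that gene's median over the 10 arrays, and the horizontal axis lists the arrays; each symbol is 1 of the 6 opioid genes (brighter probe). On C10-434, Penk, Pnoc, Pomc, Oprd1 and Oprl1 lie highest of their own values. Oprk1 is drawn lowest there, at 3.59 against its median of 5.60. The Cy-3 signal of Oprk1 was not well above background on any array. On C10-434 those of Oprd1 and Oprl1 were not either, so the places of these receptors are not measurements.

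The genes whose ratios followed each opioid gene most closely over the 10 arrays were looked up among the 10533 genes detected in both dyes on all arrays, by Pearson's r. The closest to Penk was Ppp1r9a (neurabin, an actin-binding protein of synapses; r = 0.98, and 0.95 without C10-434), followed by Galnt16 and Bex4 (both 0.96). The closest to Pnoc were Ppp1r3g (0.98), Ap3b2 (a neuronal subunit of a vesicle adaptor complex; 0.98) and Lat (0.98). The closest to Pomc were Ctf1 (cardiotrophin; 0.96), Khk (ketohexokinase; 0.96) and Exosc5 (0.95). For the receptors these were Zfp369 and Spata17 for Oprd1 (both 0.94), Clp1 for Oprk1 (0.94) and Icosl for Oprl1 (0.90). Without C10-434, r for the genes named above ran from 0.88 (Icosl) to 0.96 (Ppp1r3g). The next closest to Oprk1 fell further, Sowahc from 0.91 to 0.84 and Cdh7 from 0.88 to 0.77. Oprd1 was detected in Cy-3 on 1 array, Oprk1 on none and Oprl1 on 8. The receptor matches thus follow ratios over Cy-3 signals wholly, mostly or partly not well above background, and are not read as shared expression. With 10 arrays and 10533 genes searched, values of this size describe these arrays only, and the arrays share slides and the dim library.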

How the data were processed

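The authors hybridised 10 arrays and deposited Feature Extraction 10.10.1.1 output with an intensity per spot and dye (processed signals are background-subtracted and dye-normalized by that software), the software's log10 ratio of the dyes, and a table of log2 values, per the file headers. The deposited log10 ratio was used only to check the direction and scale of that table. The deposited log2 table had r = 1 with the log2 ratio of the processed signals and column medians of −0.051 to 0.10, so Cy-5 over Cy-3 is its direction and it is not median-centred. Control spots and flagged outlier spots were left out, spots of a probe were averaged, and 27198 of 41174 probes were named by RefSeq accession (GRCm38.p6 table). None of the opioid spots was saturated or flagged. Slides were compared on log2 ratios with limma 3.58.1 (R 4.3.3). Correlations used 100000 permutations (scipy 1.17.1). On simulated data for the slide comparison, over 40299 probes, 98 of 200 probes changed by 1.5 on the log2 scale were recovered, with 5 false calls. The number of arrays limits the precision.

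All samples stayed unassigned because the labels contradict each other on diet. Genes named were the members, at most the 3 highest and the 3 lowest by median ratio of each pathway role, and up to 3 genes most like each member. Col1a1, Gh, Prl and the arcuate genes were named as defining markers, after their values were seen. Members, lists and tests were chosen with earlier results of these data known. Alternatives were loess within arrays, median centring, normexp and floored background correction (offset 50), the deposited table, Cy-5 alone, detected probes only, the mean over a gene's probes, the software's positive-and-significant flag, and leaving out arrays. Leaving C10-434 out of the spread was chosen after seeing the data.

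Besides the marker lists given in the report, markers of the thalamus were above 0 on every array for 5 of 9 genes, of the medial habenula for 2 of 5, of the dentate gyrus for 1 of 4, of the choroid plexus for 3 of 4 and of immune cells for 0 of 4.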

Additional observations from a re-analysis of the deposited data

Results flagged for a closer look

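Each opioid probe was searched on 3 measures (log2 ratio, Cy-5 level and Cy-3 level, levels in log2 against the array's 75th percentile) for an array separated from the other 9 by a gap that exceeds Dixon's 95% critical share of the whole range. Of 30 measures, 8 had such an array, where chance alone gives about 1 in 20, or 1.5, on average. The measures are not independent, because the ratio is built from both levels and the probes of a gene share the same arrays. The 8 are therefore not read as an excess over chance. C10-434 was the array in 6 of them, all from Penk and Pnoc. Its ratios stood above the rest for Penk A_52_P286166 (7.32), Pnoc A_51_P450469 (3.33) and Pnoc A_52_P425416 (4.90). On C10-434, Penk A_52_P286166 and Pnoc A_52_P425416 were not well above background in Cy-3, and with the dimmest detected Cy-3 signal in its place the Penk ratio was at least 6.48 and the highest Pnoc ratio was 4.10, on C10-415, so the size of these ratio gaps is not a measurement. Its Cy-3 levels stood below the rest for the same probes, at −5.0, −3.19 and −5.51. The remaining 2 were the Cy-5 level of Penk A_52_P286166 on C10-413 (3.19) and the ratio of Oprl1 A_52_P99678 on C10-416 (5.92). The cause was not tested.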

How the results depend on the processing

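All 7 opioid genes, with 1 value per gene, stayed above 0 on every array under all 8 alternatives run. Leaving out an array could not have lowered this count, and the deposited table repeats the main ratio, so those alternatives were no check on it. The count includes Oprm1, which was not well above background in either dye on any array. By either flag, 9 of 10 probes were detected in Cy-5 on every array. The exception was Oprm1, which had the positive-and-significant flag in Cy-5 on every array but C10-434. Medians were lower after normexp or floored background correction, to 5.09 or 5.23 for Penk A_52_P286166, 2.47 or 2.75 for Pnoc A_52_P425416, 1.71 or 1.83 for Pomc, 0.085 or 0.17 for Oprm1, 0.45 or 0.78 for Oprd1, 1.49 or 1.94 for Oprk1 and 4.45 or 5.10 for Oprl1 A_52_P99678. Averaging a gene's probes gave 6.77 for Penk and 3.15 for Pnoc. No opioid probe passed the slide test under any alternative, while the count over all probes was 0 with normexp, 1 with the floor, 2704 in Cy-5 alone, 68 among probes detected in Cy-5, and 0 to 18 when any 1 array was left out. Slide differences, none called, changed sign in 23 cases of 152. With normexp they became 0.014 (Penk A_51_P102987), −0.047 (Pnoc A_51_P450469) and −0.0082 (Pnoc A_52_P425416). With the floor they became −0.054 (Penk A_52_P286166), −0.21 and −0.26 (both Pnoc probes), −0.088 (Pomc), 0.013 (Oprm1) and −0.10 (Oprl1 A_52_P99678). For Pnoc A_51_P450469 they became −0.013 with loess, −0.0051 with median centring and −0.0087 in Cy-5 alone. In Cy-5 alone they became −0.28 for Pomc and 0.10 for Oprk1. With 1 array left out the differences ran from −0.20 to 0.49 (Penk A_52_P286166), −0.21 to 0.15 (Pnoc A_51_P450469), −0.14 to 0.32 (Pnoc A_52_P425416), −0.060 to 0.21 (Pomc) and −0.17 to 0.056 (Oprl1 A_52_P297290), and reversed without C10-434 for all 5, without C10-423 for Pnoc A_51_P450469 (−0.047) and Pomc (−0.022), without C10-416 for Pomc (−0.0071) and without C10-415 for Oprl1 A_52_P297290 (0.0076). Correlated pairs passing fell from 3 to 0 without the 2 farthest arrays and to 0 without C10-434, and were 2 with loess. Probes with the larger range in Cy-5 went from 2 to 4 without C10-434. Beyond background correction, the cause was not tested. Signal over background limits Oprm1, Oprk1 and Oprd1 most. No paired analysis was possible because no sample was assigned to a group.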
